A study of Homo sapiens with 15 samples.

Results

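The expression of *NR0B1*, *EGR2*, *FCGRT*, *STEAP1*, *STEAP2*, *LIPI*, *PPP1R1A*, *PRKCB* and *VRK1* was followed through knockdown and rescue of EWS/FLI in A673 cells, an established Ewing sarcoma line. These 9 of the 57820 genes counted were chosen because the literature names them as targets that EWS/FLI activates. Earlier results of these data were already known when they were chosen. They were found in the count table by Ensembl identifier, and all 9 passed the filter of a mean of at least 1 count per library. RNA-seq was available for 15 libraries, 3 for each of 5 conditions. For iLuc, the shRNA was directed at luciferase and paired with an empty vector, which left the fusion made by the cells' own locus (endo-EF) in place. In iEF cells an shRNA against EWS/FLI was combined with the empty vector. The rescued cells carried the same EWS/FLI shRNA and a retroviral cDNA with an N-terminal FLAG tag, which was WT-EF, the fusion without changes, Δ22, which lacks the EWS domain, or DAF, in which tyrosines in the repeats of the N-terminal EWS domain are alanines while its SYGQ2 segment is intact. Every condition thus carried an shRNA, given on day 1 and selected with puromycin at 2 µg/mL, and a cDNA or empty vector, given on day 5 and selected with hygromycin B at 400 µg/mL up to day 16, when cells were taken for RNA. All libraries come from 1 cell line. The labels number 3 replicates per condition without saying whether these were separate cultures. The paper draws its knockdown and rescue scheme for a single replicate and adjusts each replicate set for batch. It describes a later set of replicates as new knockdown and rescue experiments. P-values here measure the spread between these libraries.

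EWS/FLI joins the low-complexity N-terminal domain of EWS to the DNA-binding domain of FLI, a transcription factor of the ETS family. ETS factors bind a GGAA core, and EWS/FLI also binds tandem repeats of GGAA (microsatellites), from which it can activate nearby genes. Ewing sarcoma cells depend on the fusion, and several of its activated targets are needed for their growth or transformed phenotype.

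Tandem GGAA runs stood near 4 of the 9 start sites, and these runs are printed because the study asks how the EWS domain acts at such repeats. Within 5000 bases of the start of the MANE Select transcript on GRCh37, a run of at least 4 GGAA on either strand was found for *NR0B1*, *FCGRT*, *STEAP2* and *LIPI*, against 3.31% of 15798 genes searched. With runs of at least 3 the same 4 members were found, against 6.84% of genes. The *NR0B1* repeat lies 1368 bases upstream of the start at chrX:30328875-30328976 and holds 25 repeats in 3 runs, outside any annotated gene. The *LIPI* run, also in no annotated gene, lies 2337 bases upstream at chr21:15585613-15585656 with 11 repeats. The *FCGRT* repeat lies 1043 bases upstream at chr19:50014764-50014875, with 20 repeats in 3 runs, the longest of 12. The long *STEAP2* run of 17 repeats lies 3259 bases upstream at chr7:89837728-89837795. Both of these fall in introns of longer annotated transcripts of their own genes, and the *STEAP2* run also in an intron of the antisense gene *STEAP2-AS1*. *FCGRT* has a further run of 5 repeats 4883 bases downstream of its start, and *STEAP2* one of 6 repeats 3364 bases upstream. The sequences are of the GRCh37 reference on the strand of each gene, 5′ to 3′, with runs of at least 3 GGAA in capitals, and the repeat lengths of A673 cells were not measured here.
NR0B1: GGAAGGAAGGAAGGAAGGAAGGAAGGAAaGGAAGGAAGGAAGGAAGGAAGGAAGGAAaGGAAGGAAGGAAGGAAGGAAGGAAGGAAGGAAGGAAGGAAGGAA
FCGRT: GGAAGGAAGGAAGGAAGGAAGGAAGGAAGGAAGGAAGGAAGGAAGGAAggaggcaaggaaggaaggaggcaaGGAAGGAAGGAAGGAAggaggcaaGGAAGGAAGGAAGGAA
STEAP2: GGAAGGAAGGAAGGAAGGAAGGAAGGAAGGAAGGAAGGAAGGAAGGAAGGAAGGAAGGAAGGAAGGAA
LIPI: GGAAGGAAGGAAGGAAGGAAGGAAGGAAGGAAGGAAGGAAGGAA

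**Figure D1:**
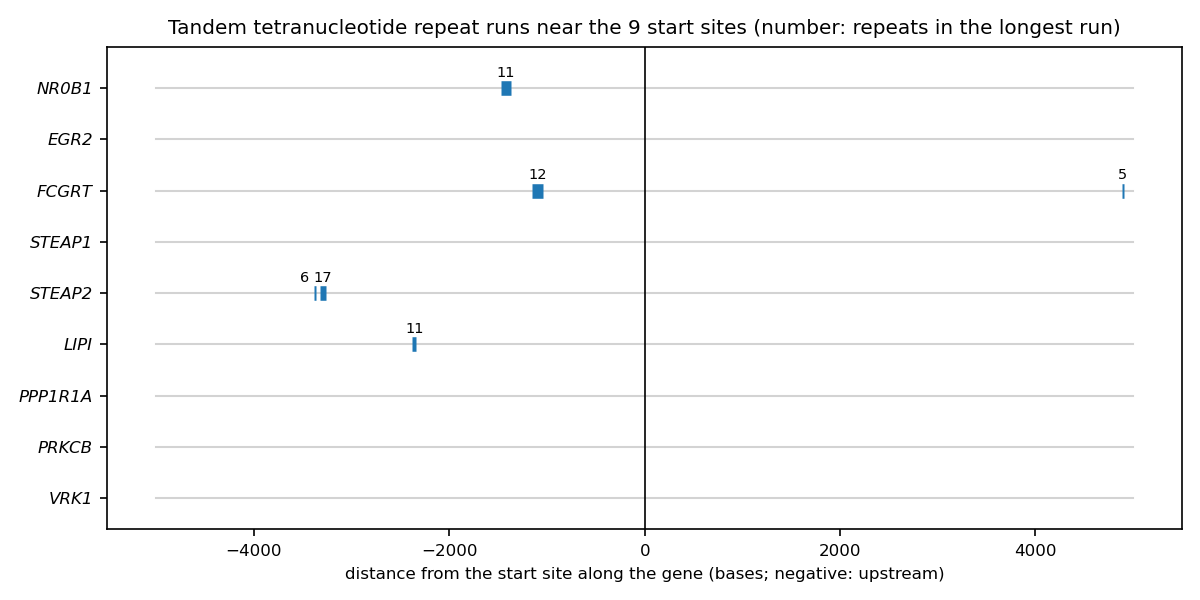
Position of tandem runs of at least 4 GGAA within 5000 bases of the start site of each of the 9 genes (horizontal axis in bases along the gene, one line per gene), with the number of repeats in the longest run above each block. The 4 genes with a run have their longest one upstream, between 1043 and 3259 bases from the start.

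For the other 5 genes the nearest run of at least 4 GGAA lay farther out, at 28195 bases from the start for *VRK1*, 31015 for *PRKCB*, 36251 for *PPP1R1A*, 53884 for *STEAP1* and 61284 for *EGR2*. The run nearest *STEAP1*, of 6 repeats, is the shorter of the 2 *STEAP2* runs named above. The median over all genes searched was 87080.5 bases. In the 300-base promoter windows of RefSeq (GRCh38.p14, 250 bases before to 50 after a start), 7 of the 9 genes were matched, and *PPP1R1A* and *VRK1* were not. GGAA on either strand occurred in the window of 6 of these 7 and in 95.5% of all 35116 promoters, and *PRKCB* had none. The longer ETS core CCGGAA occurred on either strand in 2 members, *STEAP1* and *STEAP2*, and in 17.2% of all promoters. The *STEAP1* window at chr7:90154219-90154518 of GRCh38.p14 is printed because *STEAP1* has this core and no tandem run within 5000 bases. Capitals mark each GGAA and its reverse complement, and the joined pair in the middle is a CCGGAA on each strand, overlapping itself.
STEAP1: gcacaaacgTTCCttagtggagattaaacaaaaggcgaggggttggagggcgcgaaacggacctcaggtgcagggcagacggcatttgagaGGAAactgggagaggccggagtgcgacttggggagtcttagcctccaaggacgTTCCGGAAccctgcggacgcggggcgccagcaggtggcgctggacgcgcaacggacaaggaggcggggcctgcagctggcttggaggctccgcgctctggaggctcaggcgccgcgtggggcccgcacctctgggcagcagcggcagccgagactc

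Total counts per library ran from 28659475 to 41859880 (median 32943231). *FLI1*, whose reads come from both endo-EF and the cDNAs, had a mean level of 49.4 ± 2.62 CPM (counts scaled to library size by TMM, mean ± SD, n = 3) in iLuc, 14.6 ± 1.44 in iEF, 17.6 ± 1.39 in WT-EF, 31.2 ± 6.08 in Δ22 and 24.3 ± 2.64 in DAF cells. The knockdown was thus seen at the targeted gene, and over iEF *FLI1* was at 0.27 (SE 0.10, adjusted p = 0.0538) in WT-EF, 1.09 (SE 0.10, adjusted p = 4.46e-04) in Δ22 and 0.74 (SE 0.10, adjusted p = 3.35e-04) in DAF as log2 fold changes (edgeR's quasi-likelihood test, Benjamini-Hochberg adjustment). The paper states that the shRNA is directed at the 3′UTR of EWS/FLI and shows the tagged constructs by western blot. Whether the cDNAs carry this 3′UTR was not checked, so *FLI1* counts may not measure constructs and endo-EF alike. The Ewing sarcoma transcription factor *NKX2-2* was counted at a mean of 5.23 CPM in iLuc cells. *CD99*, the surface antigen of this tumour, had at most 3 counts in any library. Whether this reflects its level in these cells or how its reads were mapped and counted was not tested. Of markers of blood and endothelial cells, *PTPRC* had at most 31 counts, *VWF* 22, *LYZ* 8 and *CD3E* 1. In a bulk culture, fewer cells expressing a gene and less RNA per cell cannot be told apart.

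All 9 genes fell when EWS/FLI was depleted. In iLuc against iEF the 9 were called higher at an adjusted p under 0.05 (edgeR's quasi-likelihood test on counts, Benjamini-Hochberg adjustment over 28793 genes tested), where 19.5% of all genes were called higher and 22.1% lower. Their log2 fold changes ran from 0.89 for *VRK1* to 6.64 for *PPP1R1A*, with a median of 3.34 against 0.04 over all genes. WT-EF also raised all 9 over iEF, with log2 fold changes of 0.55 to 4.48 and a median of 3.13 against -0.01. Of all genes, 12.9% were called higher and 17.0% lower in WT-EF. DAF raised 7 of the 9, all but *PPP1R1A* and *VRK1*, with a median of 1.65 against 0.0004, where 5.0% of all genes were higher and 6.19% lower. Δ22 gave no call among the 9 with edgeR, where 0.472% of all genes were higher and 0.83% lower, and 8 of the 9 estimates were above 0 with a median of 0.57 against 0.01. At an unadjusted p under 0.05, 5 of the 9 were higher and 1 was lower in Δ22, against 6.48% and 7.13% of all genes. DESeq2's Wald test called 2 higher, *EGR2* and *PRKCB*, against 2.87% of the genes it gave an adjusted p. With no filter on low counts, edgeR called 6 higher, against 1.76% of all genes. These 4 comparisons share the same 3 iEF libraries.

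**Figure D2:**
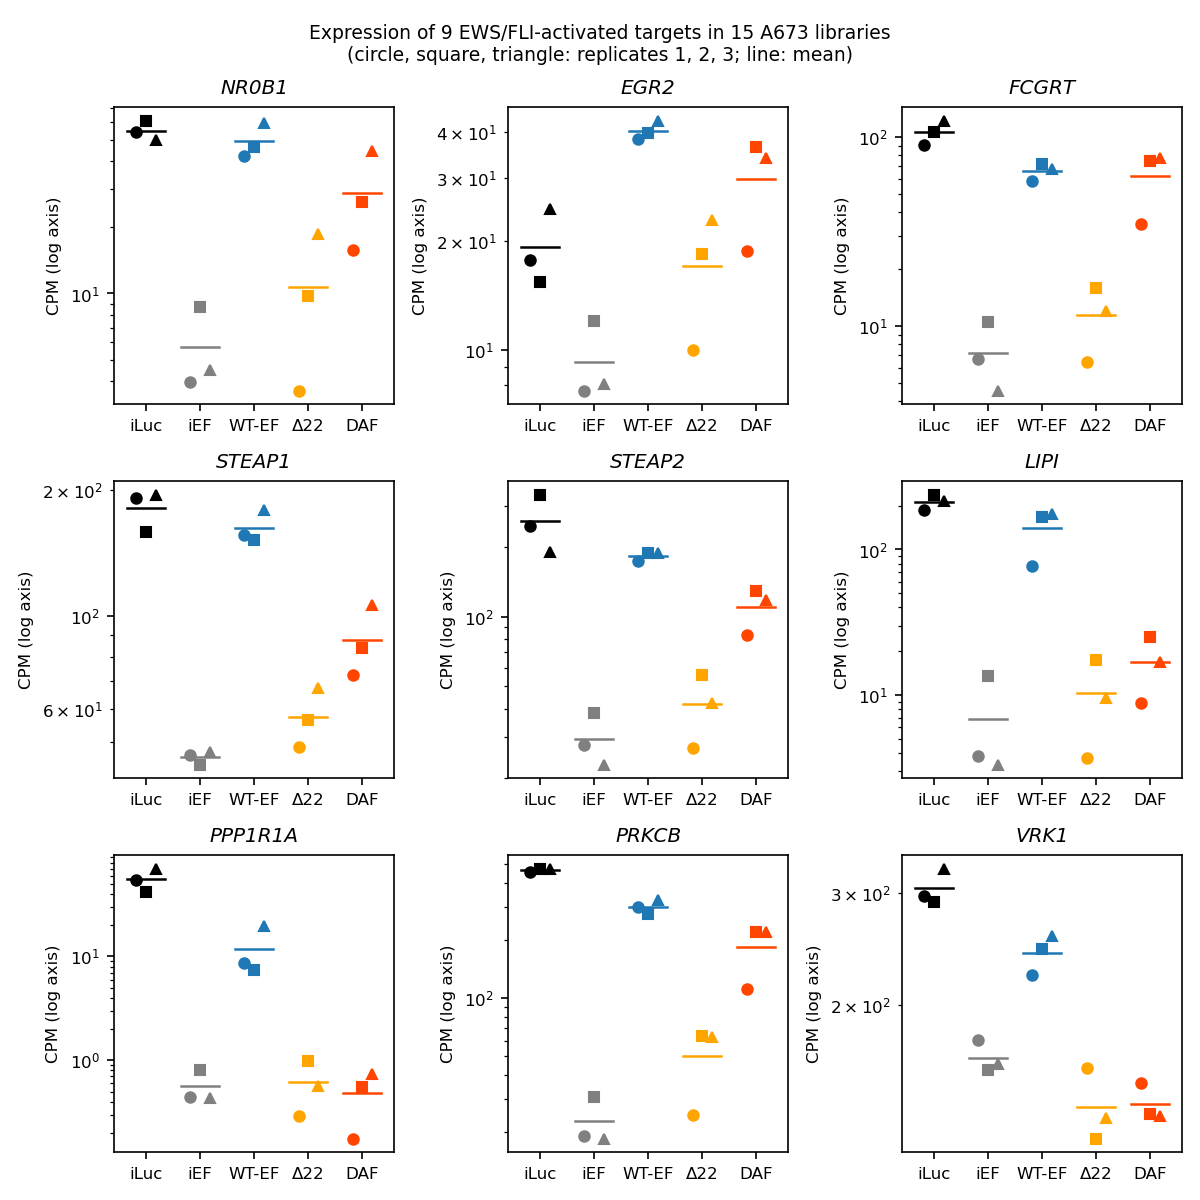
CPM of each gene (log axis, its own scale in each panel) in the 15 libraries, by condition, with 1 point per library (circle, square and triangle for replicates 1, 2 and 3) and a line at the mean. Every iLuc and WT-EF point lies above the iEF points in all 9 panels, as for 26.0% and 17.9% of all genes tested, and the DAF points lie above those of iEF in 6 panels and below them in 1, VRK1, against 12.8% and 14.4% of all genes.

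*NR0B1* encodes DAX1, an orphan nuclear receptor that acts mainly as a corepressor and is needed for the transformed phenotype of Ewing sarcoma cells. Its levels in replicates 1, 2 and 3 were 54.0, 61.2 and 49.8 CPM in iLuc and 3.94, 8.67 and 4.51 CPM in iEF cells. They were 42.2, 46.1 and 59.4 CPM in WT-EF, 3.60, 9.78 and 18.7 CPM in Δ22 and 15.7, 26.1 and 44.4 CPM in DAF cells. iLuc, WT-EF and DAF all lay above iEF without overlap, while Δ22 overlapped iEF and reached DAF levels in replicate 3 only. The log2 fold change over iEF was 3.34 (SE 0.38, adjusted p = 5.44e-06) in iLuc, 3.13 (SE 0.38, adjusted p = 2.06e-05) in WT-EF and 2.26 (SE 0.37, adjusted p = 0.00143) in DAF. For Δ22 it was 0.77 (95% interval -0.03 to 1.57, adjusted p = 0.392), with replicate 3 higher and replicates 1 and 2 close to iEF. Measured directly, DAF against WT-EF gave -0.87 (SE 0.34, adjusted p = 0.0751) and DAF against Δ22 1.49 (SE 0.36, adjusted p = 0.0610), neither called. The difference from WT-EF was called in 6 of 25 alternative analyses, as without the replicate 3 libraries, at -1.13 (adjusted p = 0.00183). The difference from Δ22 was called in 11 of the 25, as without Δ22 replicate 3, at 2.05 (adjusted p = 0.0230). The DAF and WT-EF ranges overlapped, DAF replicate 3 being above WT-EF replicate 1. WT-EF and iLuc levels overlapped as well, with a difference of -0.21 (95% interval -0.93 to 0.52).

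*EGR2*, a zinc finger transcription factor of hindbrain patterning and myelination, had its highest levels under WT-EF and DAF and not in iLuc. It was measured at 17.7, 15.5 and 24.5 CPM in iLuc, 7.73, 12.1 and 8.09 CPM in iEF and 38.3, 39.9 and 43.1 CPM in WT-EF cells. The 3 groups did not overlap one another, and WT-EF was the highest. Its levels were 9.99, 18.4 and 22.8 CPM in Δ22 and 18.8, 36.5 and 34.0 CPM in DAF cells. DAF lay above iEF and below WT-EF in all replicates, and Δ22 overlapped both iEF and iLuc. *EGR2* was the only one of the 9 that was higher in WT-EF than in iLuc, with a log2 difference of 1.08 (SE 0.22, adjusted p = 0.00301). Over iEF the log2 fold change was 1.06 (SE 0.23, adjusted p = 0.00153) in iLuc, 2.14 (SE 0.23, adjusted p = 6.59e-06) in WT-EF and 1.65 (SE 0.23, adjusted p = 3.66e-04) in DAF, and 0.83 (95% interval 0.34 to 1.31, adjusted p = 0.0907) in Δ22. DAF was not called against WT-EF (-0.49, 95% interval -0.96 to -0.03, adjusted p = 0.112) nor from Δ22 (0.82, 95% interval 0.34 to 1.29, adjusted p = 0.103). Without Δ22 replicate 1, the lowest of its group, *EGR2* was called in Δ22 against iEF at 1.04 (adjusted p = 0.0422).

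*FCGRT*, the heavy chain of the neonatal Fc receptor that recycles IgG and albumin, had a mean level of 65.8 CPM in WT-EF cells and one of 62.1 CPM in DAF cells. Its levels were 90.9, 106 and 122 CPM in iLuc and 6.67, 10.5 and 4.54 CPM in iEF cells. Rescue gave 58.4, 71.6 and 67.5 CPM with WT-EF, 6.45, 16.0 and 12.1 CPM with Δ22 and 34.6, 74.7 and 77.1 CPM with DAF. DAF replicates 2 and 3 were above every WT-EF library and replicate 1 below them all, whereas Δ22 overlapped iEF. Over iEF, it changed on the log2 scale by 3.90 (SE 0.27, adjusted p = 4.60e-08) in iLuc, 3.21 (SE 0.27, adjusted p = 7.36e-07) in WT-EF and 3.06 (SE 0.27, adjusted p = 1.33e-05) in DAF, the largest of the 9 for DAF. DAF against WT-EF differed by -0.15 (95% interval -0.66 to 0.37, adjusted p = 0.721), so a deficit of DAF of up to 0.66 remains within the interval. DAF against Δ22 was 2.44 (SE 0.26, adjusted p = 3.37e-04). WT-EF lay below iLuc without overlap, with an estimate of -0.69 (SE 0.24, adjusted p = 0.0558) that missed the threshold.

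*STEAP1* and *STEAP2*, neighbours on chromosome 7, encode six-transmembrane proteins of the STEAP family, in which STEAP2 is a metalloreductase and STEAP1 lacks the NADPH-binding domain. *STEAP1* was measured at 192, 158 and 195 CPM in iLuc, 46.4, 44.1 and 47.4 CPM in iEF, 157, 152 and 179.7 CPM in WT-EF, 48.8, 56.3 and 67.3 CPM in Δ22 and 72.4, 84.0 and 106 CPM in DAF cells. The iEF values lay close together, all Δ22 values lay above them and all DAF values above those of Δ22. *STEAP1* over iEF was 1.98 (SE 0.11, adjusted p = 4.94e-09) in iLuc, 1.82 (SE 0.11, adjusted p = 5.87e-08) in WT-EF, 0.92 (SE 0.11, adjusted p = 1.06e-04) in DAF and 0.31 (SE 0.11, adjusted p = 0.183) in Δ22, the last not called. DAF was lower than WT-EF, at -0.90 (SE 0.11, adjusted p = 2.44e-05) and exceeded Δ22 by 0.61 (SE 0.11, adjusted p = 0.00938). The call against Δ22 was lost without the replicate 2 libraries, with an adjusted p of 0.204, without Δ22 replicate 1, with an adjusted p of 0.0698, without DAF replicate 2 (0.0758) and without DAF replicate 3 (0.0908), and with no replicate block (0.0689).

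*STEAP2* was measured at 246, 338 and 191 CPM in iLuc, 27.7, 38.1 and 22.8 CPM in iEF and 174, 189 and 188 CPM in WT-EF cells. It reached 27.0, 56.0 and 42.4 CPM in Δ22 and 82.9, 129 and 118 CPM in DAF cells. DAF lay between iEF and WT-EF without overlap with either, and above Δ22. Against iEF the log2 change was 3.13 (SE 0.19, adjusted p = 1.37e-08) in iLuc, 2.67 (SE 0.19, adjusted p = 2.16e-07) in WT-EF and 1.90 (SE 0.18, adjusted p = 2.77e-05) in DAF. Its value for Δ22 was 0.48 (95% interval 0.09 to 0.87, adjusted p = 0.236). DAF against WT-EF was -0.77 (SE 0.18, adjusted p = 0.00437) and DAF against Δ22 1.42 (SE 0.18, adjusted p = 0.00109).

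*LIPI*, a membrane-associated phospholipase that releases lysophosphatidic acid and is also known as a cancer/testis antigen, showed a wide gap between WT-EF and DAF. It was measured at 186, 238 and 215 CPM in iLuc and 3.84, 13.5 and 3.32 CPM in iEF cells. The rescued cells had 77.5, 167 and 176 CPM with WT-EF, 3.72, 17.5 and 9.58 CPM with Δ22 and 8.82, 25.0 and 16.8 CPM with DAF. Replicate 2 was the highest of the iEF, Δ22 and DAF libraries, and iEF replicate 2 exceeded DAF replicate 1, so these groups overlapped, while every WT-EF library lay above them. Fitted log2 changes over iEF were 5.20 (SE 0.37, adjusted p = 4.65e-08) in iLuc, 4.48 (SE 0.36, adjusted p = 5.05e-07) in WT-EF and 1.37 (SE 0.33, adjusted p = 0.0153) in DAF. DAF was lower than WT-EF, at -3.11 (SE 0.33, adjusted p = 1.16e-05), and its difference from Δ22 was 0.79 (95% interval 0.10 to 1.48, adjusted p = 0.379). The call of DAF over iEF rested on few libraries. It was lost without the replicate 1 libraries (adjusted p = 0.0577), without iEF replicate 1 (adjusted p = 0.0552), iEF replicate 3 (0.0668), DAF replicate 2 (0.0622) or DAF replicate 3 (0.0582), and with no replicate block (0.177).

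*PPP1R1A*, which encodes an inhibitor of protein phosphatase 1 that is switched on by protein kinase A, had the largest fold loss of the 9 on depletion. Its levels were 55.0, 41.9 and 70.1 CPM in iLuc and 0.447, 0.809 and 0.436 CPM in iEF cells. WT-EF gave 8.56, 7.40 and 19.5 CPM, Δ22 0.293, 0.991 and 0.572 CPM and DAF 0.176, 0.554 and 0.738 CPM. The Δ22 and DAF libraries overlapped those of iEF, and the WT-EF libraries lay between iEF and iLuc without overlap with either. Relative to iEF the log2 fold change was 6.64 (SE 0.41, adjusted p = 1.52e-08) in iLuc, 99.5-fold, and 4.32 (SE 0.40, adjusted p = 1.78e-06) in WT-EF, 20.0-fold. DAF gave -0.20 (95% interval -1.32 to 0.91, adjusted p = 0.879) and Δ22 0.18 (95% interval -0.87 to 1.24, adjusted p = 0.932), wide intervals on 5 to 38 counts per library in iEF, Δ22 and DAF, where a difference within these bounds was not detectable. DAF was lower than WT-EF, at -4.52 (SE 0.41, adjusted p = 4.09e-06), and WT-EF was lower than iLuc, at -2.32 (SE 0.31, adjusted p = 1.47e-04). *PPP1R1A* shares 443 bases of exon with *PDE1B* on the opposite strand, and whether counting used strand is not given in the sources used here.

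*PRKCB* encodes protein kinase C beta, a calcium- and lipid-dependent kinase. Its levels were 458, 474 and 469 CPM in iLuc, 19.2, 30.8 and 18.5 CPM in iEF and 300.4, 274 and 325 CPM in WT-EF cells. The other rescues gave 24.6, 63.8 and 62.5 CPM in Δ22 and 112, 222 and 220.4 CPM in DAF cells. The iLuc, WT-EF and DAF groups were separate from one another and from iEF in this order, and Δ22 overlapped iEF only through its replicate 1. On the log2 scale the change over iEF was 4.39 (SE 0.28, adjusted p = 1.99e-08) in iLuc, 3.76 (SE 0.27, adjusted p = 2.61e-07) in WT-EF and 2.99 (SE 0.27, adjusted p = 1.45e-05) in DAF. For Δ22 it was 1.09 (SE 0.25, adjusted p = 0.0526), and without Δ22 replicate 1 it was called, at 1.39 (adjusted p = 0.00910). DAF exceeded Δ22 by 1.90 (SE 0.25, adjusted p = 0.00143). DAF was lower than WT-EF, at -0.77 (SE 0.25, adjusted p = 0.0287), a call lost without the replicate 1 libraries (adjusted p = 0.156), the replicate 2 libraries (0.0514), WT-EF replicate 1 (adjusted p = 0.143), WT-EF replicate 3 (0.0542), DAF replicate 1 (0.170) or DAF replicate 2 (0.0579), and with no replicate block (0.110).

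*VRK1*, a nuclear serine/threonine kinase of dividing cells that acts on chromatin and nuclear envelope proteins, had the smallest fold change of the 9 on depletion and was not called higher with DAF. It was measured at 297, 289.9 and 328 CPM in iLuc, 176, 158 and 161 CPM in iEF and 223, 244 and 256 CPM in WT-EF cells. Levels were 159, 123 and 133 CPM in Δ22 and 150.3, 134 and 134 CPM in DAF cells. All DAF libraries lay below all iEF libraries, while Δ22 overlapped iEF through replicate 1. As log2 fold changes over iEF, the values were 0.89 (SE 0.10, adjusted p = 2.89e-06) in iLuc and 0.55 (SE 0.10, adjusted p = 4.42e-04) in WT-EF. For DAF it was -0.24 (95% interval -0.45 to -0.04, adjusted p = 0.127) and for Δ22 -0.26 (95% interval -0.46 to -0.06, adjusted p = 0.222), both below the iEF level without passing the test. DAF and Δ22 differed by 0.02 (95% interval -0.19 to 0.22), and DAF was lower than WT-EF, at -0.79 (SE 0.10, adjusted p = 3.12e-05). WT-EF remained below iLuc, at -0.34 (SE 0.09, adjusted p = 0.0217), a call lost without the replicate 1 libraries (adjusted p = 0.153), the replicate 2 libraries (0.116), iLuc replicate 2 (adjusted p = 0.0656), iLuc replicate 3 (0.119) or WT-EF replicate 1 (0.133), and with only the 6 libraries compared (0.0705).

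**Figure D3:**
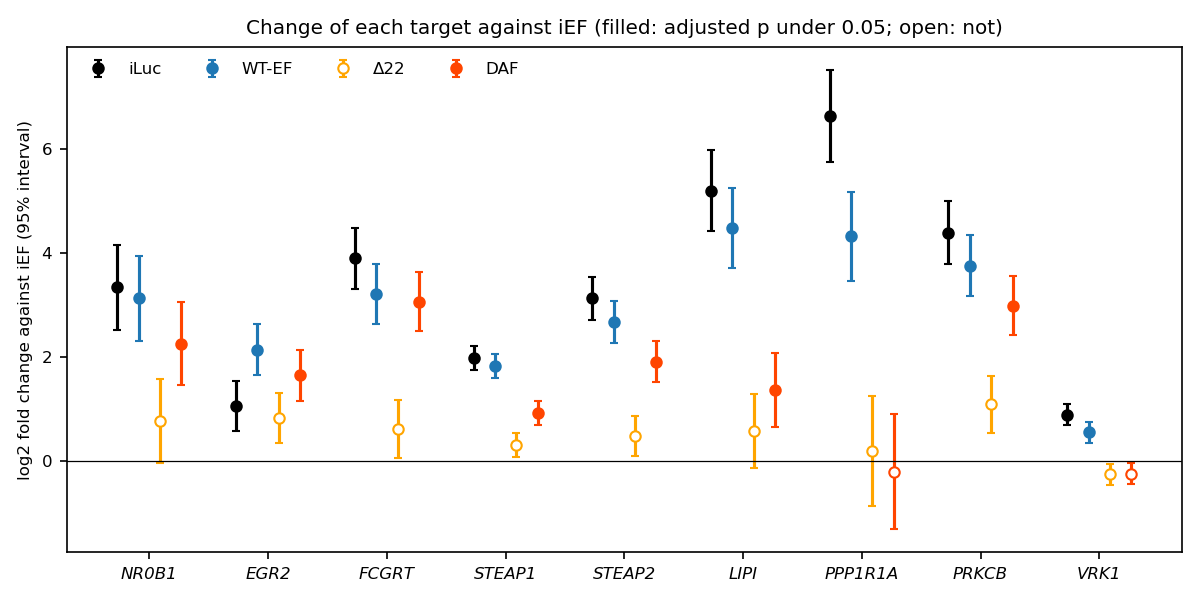
Log2 fold change of each gene against iEF (vertical axis, points with 95% intervals from the edgeR fit) for iLuc, WT-EF, Δ22 and DAF, with filled points for an adjusted p under 0.05. All iLuc and WT-EF points are filled, no Δ22 point is, and the DAF points of PPP1R1A and VRK1 are open.

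The constructs were next compared directly, without iEF. Against iLuc, WT-EF left *PPP1R1A* and *VRK1* lower and *EGR2* higher, where 10.7% of all genes were called higher and 9.03% lower. With no filter on low counts the 2 lower genes became 6, against 5.86% of all genes. For 6 of the 9 the WT-EF libraries lay below all iLuc libraries, against 16.7% of all genes. The uncalled estimates for these were -0.69 for *FCGRT*, -0.72 for *LIPI*, -0.63 for *PRKCB* and -0.46 for *STEAP2*, with adjusted p from 0.0558 to 0.116. DAF was lower than WT-EF for 6 of the 9, *PPP1R1A*, *LIPI*, *STEAP1*, *VRK1*, *PRKCB* and *STEAP2*, and higher for none, where 12.4% of all genes were called lower and 16.1% higher. All 9 estimates were below 0, with a median of -0.79 against 0.01 over all genes. DAF exceeded Δ22 for 4 of the 9, *FCGRT*, *PRKCB*, *STEAP2* and *STEAP1*, where 0.948% of all genes were called higher and 0.379% lower. The median log2 difference was 0.82 against -0.02. At an unadjusted p under 0.05, 7 of the 9 were higher in DAF than in Δ22, against 4.92% of all genes. When only the 6 libraries were fitted, 7 were called higher, against 4.52% of all genes.

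The extent of rescue was expressed as the part of the iLuc level over iEF that a construct recovered, (construct - iEF)/(iLuc - iEF) in CPM, within each set of libraries with the same replicate number. This ratio is given as a description, since the constructs share the iLuc and iEF libraries. WT-EF recovered a median of 63.3% over the 9 genes, DAF 36.4% and Δ22 5.76%. The scale matters here, and with log2 CPM in place of CPM the medians were 85.6%, 61.1% and 15.5%. For WT-EF it was 89.7% ± 27.5 (mean ± SD, n = 3) for *NR0B1* and 86.7% ± 9.71 for *STEAP1*, and at the other end 19.4% ± 6.94 for *PPP1R1A*. WT-EF values for *STEAP2*, *LIPI*, *PRKCB*, *FCGRT* and *VRK1* were between 53.7% and 71.8%. DAF recovered 54.1% ± 18.4 for *FCGRT*, 48.3% ± 34.8 for *NR0B1*, 37.4% ± 16.7 for *STEAP2*, 36.4% ± 13.2 for *PRKCB* and 30.9% ± 11.5 for *STEAP1*. It recovered 4.74% ± 1.85 for *LIPI* and -0.228% ± 0.576 for *PPP1R1A*. For *VRK1* the DAF value was -18.5% ± 2.53, below 0 in all 3 sets. With total counts in place of TMM as library sizes it was -9.49%, and the Δ22 value of *VRK1* -12.5% in place of -19.3%. *EGR2* stood apart, since endo-EF raised it little and WT-EF exceeded the iLuc level, giving 306%, 823% and 213% in the 3 sets for WT-EF and 111%, 722% and 158% for DAF. With Δ22, *EGR2* reached 22.7%, 188% and 89.6%, a mean of 100% ± 83.1. In set 2 its iLuc and iEF levels were 15.5 and 12.1 CPM, a small difference to divide by. On the log2 scale the ratio is larger for genes that fell far, 63.4% for *PPP1R1A* with WT-EF and, with DAF, 78.0% for *FCGRT*, 68.2% for *PRKCB*, 68.1% for *NR0B1*, 61.1% for *STEAP2*, 46.3% for *STEAP1* and 27.2% for *LIPI*. *VRK1* and *PPP1R1A* stayed below 0 with DAF, at -27.7% and -5.26%.

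**Figure D4:**
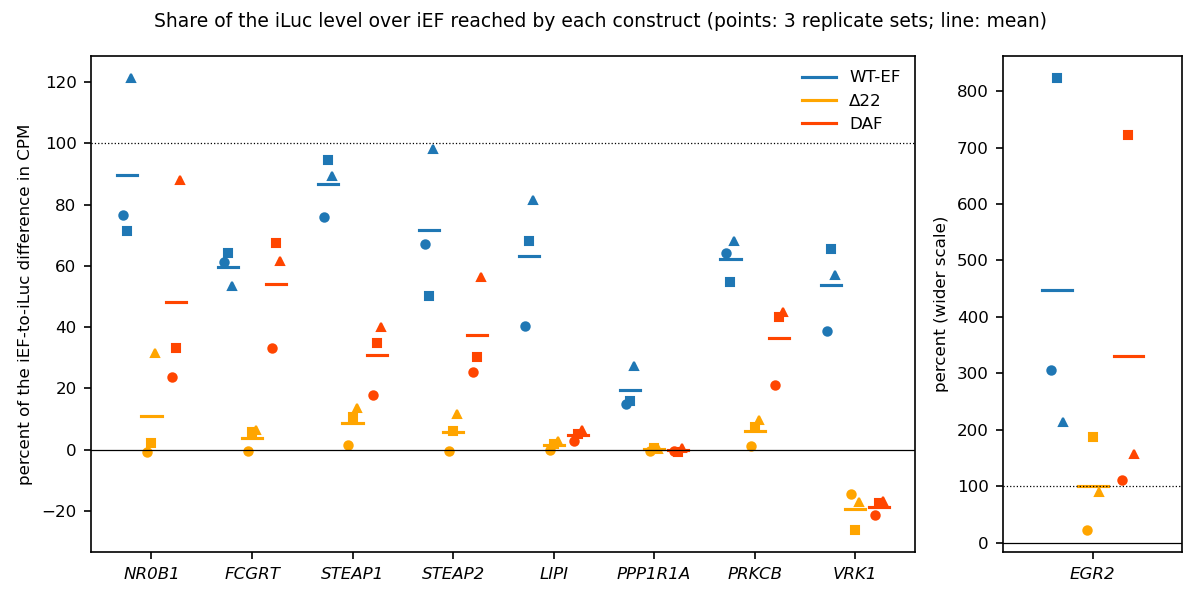
Percent of the iEF-to-iLuc difference in CPM reached by WT-EF, Δ22 and DAF for each gene, with 1 point per replicate set and a line at the mean; EGR2 is drawn on a wider scale of its own. Dotted and solid lines mark the iLuc level (100) and the iEF level (0), and VRK1 lies below 0 for both Δ22 and DAF.

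The genes with a GGAA run near the start site did not stand together in their response to DAF. *NR0B1*, *FCGRT* and *STEAP2* were restored by DAF to between 37.4% and 54.1%, and *LIPI*, with 11 repeats, to 4.74%. Among the 5 genes without a run in 5000 bases, *EGR2* had the highest mean of all 9, 330.3% over its 3 uneven sets. Δ22 also reached a mean of 100% for *EGR2*. Of the other genes without a run, *PRKCB* and *STEAP1* reached 36.4% and 30.9% with DAF, and *PPP1R1A* and *VRK1* had values below 0. With 9 chosen genes this is a description, and no test was made.

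Libraries of a condition were not alike across the 9 genes. Replicate 1 was the lowest of the DAF libraries for 8 of the 9 and the lowest of the Δ22 libraries for 8 of the 9. Replicate 2 was the highest iEF library for 7 of the 9, and replicate 3 the highest WT-EF library for 7 of the 9. The order of the libraries over all genes was not counted, so these orders may not be particular to the 9. *FLI1* was likewise lowest in replicate 1 of Δ22 and of DAF, at 24.4 and 22.1 CPM, and its part in these results was not tested. Without DAF replicate 1, DAF still raised 7 of the 9 over iEF, against 4.05% of all genes. DAF was then lower than WT-EF for 5 of the 9, *PRKCB* being lost. With all 15 libraries, 12.4% of all genes were lower in DAF than in WT-EF.

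Levels were compared between genes per kilobase of the MANE Select transcript (RPKM, from counts scaled by TMM). In iLuc cells the order was *VRK1* at 183 ± 12.0 RPKM (mean ± SD, n = 3), *STEAP1* at 149 ± 16.6, *LIPI* at 127 ± 15.6, *FCGRT* at 70.3 ± 10.3 and *PRKCB* at 58.3 ± 1.07, then *STEAP2* at 37.0 ± 10.6, *PPP1R1A* at 30.5 ± 7.72, *NR0B1* at 30.3 ± 3.18 and *EGR2* at 6.46 ± 1.59. *STEAP2*, *PPP1R1A* and *NR0B1* differed by less than the SD of *STEAP2*, and *STEAP1* and *LIPI* by less than the sum of their SDs. After depletion the order was *VRK1* at 99.2 ± 5.93 RPKM and *STEAP1* at 37.7 ± 1.39, with 6 genes between 2.85 and 4.79 whose spreads overlap, and *PPP1R1A* last at 0.309 ± 0.116. These orders depend on the length used, since reads were counted over all exons of a gene in the authors' annotation. Merged exon lengths were taken here from a GENCODE annotation lifted to GRCh37, which is not the one used for counting. They may include exons over which no reads were counted. Per kilobase of all exons merged, a choice made after seeing the data, *VRK1*, with 31679 bases against 1663 in its MANE Select transcript, was above only *EGR2* in iLuc, at 9.62 ± 0.632 RPKM, and next to *STEAP1* in iEF, at 5.21 ± 0.311. *STEAP1* then had the highest level in both, at 118 ± 13.1 and 29.8 ± 1.10, with *LIPI* next in iLuc at 111 ± 13.6. *FCGRT*, at 26.2 ± 3.85 in iLuc, then lay within the spread of *STEAP2* and *NR0B1*, and *PPP1R1A* remained last in iEF.

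Relatives or partners of the 9 genes were called in both directions. Of 15 listed, 13 were tested, and *NR0B2* and *STEAP4* had too few reads. In iLuc against iEF, 3 of the 13 were called higher and 5 lower, where 19.5% of all genes were higher and 22.1% lower. The median log2 fold change was 0.27 against 0.04 over all genes. *PPP1R1B*, a relative of *PPP1R1A* that also inhibits protein phosphatase 1, rose by 4.30 (SE 0.35, adjusted p = 1.71e-07) in iLuc and 2.92 (SE 0.35, adjusted p = 1.61e-05) in WT-EF and was at -0.12 (adjusted p = 0.910) in DAF. *LIPH*, the closest relative of *LIPI*, rose by 2.60 (SE 0.19, adjusted p = 8.01e-08) in iLuc and 2.35 (SE 0.19, adjusted p = 6.54e-07) in WT-EF and was at 0.53 (adjusted p = 0.0951) in DAF. *EGR1*, an immediate early gene, was higher in iLuc by 1.15 (SE 0.22, adjusted p = 6.67e-04). Several relatives went the opposite way from the listed target. *PRKCA* was lower in iLuc, at -1.57 (SE 0.21, adjusted p = 2.33e-05), and *STEAP3* at -1.94 (SE 0.27, adjusted p = 3.85e-05). *VRK2* was lower, at -0.94 (SE 0.12, adjusted p = 1.36e-05), as were *PPP1R1C*, at -0.88 (SE 0.15, adjusted p = 2.60e-04), and *B2M*, the light chain that pairs with *FCGRT*, at -0.73 (SE 0.19, adjusted p = 0.00556). In DAF only *EGR4* was called, at 2.75 (SE 0.48, adjusted p = 0.00211) over a mean of 0.168 CPM in iEF. Of all genes, 5.0% were called higher in DAF and 6.19% lower. In Δ22 only *LIPH* was called, at 0.89 (SE 0.19, adjusted p = 0.0335), where 0.472% of all genes were called higher. *STEAP1B*, a near copy of *STEAP1*, was at -0.08 (95% interval -0.29 to 0.13) in iLuc, and how reads that match both copies were treated is not given in the sources used here.

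**Figure D5:**
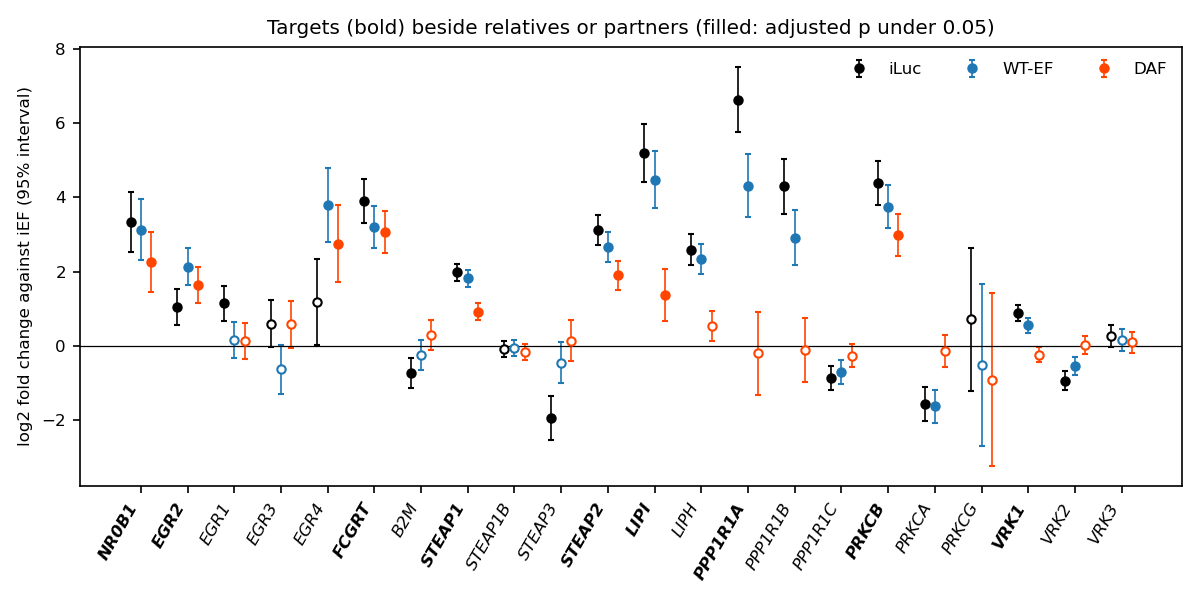
Log2 fold change against iEF (vertical axis, with 95% intervals) in iLuc, WT-EF and DAF for the 9 targets (bold) and 13 relatives or partners, with filled points for an adjusted p under 0.05. PPP1R1B and LIPH lie above 0 in iLuc and WT-EF beside PPP1R1A and LIPI, whereas PRKCA and VRK2 lie below 0 beside PRKCB and VRK1.

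Genes on either side of the 9 were also followed, as the nearest tested gene in the RefSeq order. Of 16 neighbours outside the list, 11 were called higher and 3 lower in iLuc against iEF, where 19.5% of all genes were higher and 22.1% lower. The median log2 fold change was 2.11 against 0.04 over all genes. Neighbours had to pass the filter on mean counts over the 15 libraries, so silent genes were skipped. *GLYCAM1*, for one, had reads in iLuc and WT-EF only and passed through them. The count and the median are therefore in part set by this choice. *RBM11*, an RNA-binding protein gene beside *LIPI*, was higher in iLuc by 3.38 (SE 0.17, adjusted p = 2.21e-09), in WT-EF by 2.76 (SE 0.16, adjusted p = 5.87e-08) and in DAF by 0.92 (SE 0.16, adjusted p = 0.00175). *PDE1B*, a cyclic nucleotide phosphodiesterase whose exons overlap those of *PPP1R1A*, was higher in iLuc by 4.02 (SE 0.26, adjusted p = 1.97e-08) and in DAF by 1.02 (SE 0.29, adjusted p = 0.0326). On both sides of *PRKCB*, *CHP2* and *CACNG3* were higher in iLuc by 5.18 (SE 0.61, adjusted p = 6.79e-06) and 4.34 (SE 0.82, adjusted p = 5.46e-04), from low levels in iEF. *LINC02304* beside *VRK1* rose by 6.96 (SE 0.73, adjusted p = 2.13e-06) with 1.67 and 0.0112 CPM in iLuc and iEF, and *LINC02299* on its other side had 0.118 and 0.00876 CPM. *DPY19L2P4* beside *STEAP1* had 1.15 and 0.0747 CPM and *CFAP69* beside *STEAP2* 4.74 and 2.63 CPM. *GLYCAM1* beside *PPP1R1A* had 0.196 CPM in iLuc and no read in iEF. A smaller increase was seen for *GK* beside *NR0B1* (0.59). *RCN3* beside *FCGRT* was lower, at -1.07 (SE 0.16, adjusted p = 6.27e-05), and both genes beside *EGR2*, *ADO* and *NRBF2*, were lower, at -0.33 and -0.42.

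Other genes reported in the literature as activated by EWS/FLI gave 17 of 23 higher and 1 lower, *UPP1*, in iLuc against iEF. Of all genes, 19.5% were higher and 22.1% lower. The median log2 fold change was 1.70 against 0.04 over all genes. WT-EF also gave 17 higher and 1 lower, *FOXM1*, where 12.9% of all genes were higher and 17.0% lower. DAF gave 10 higher and 2 lower, where 5.0% of all genes were higher and 6.19% lower, with a median of 0.36 against 0.0004. The genes higher in DAF were *IGF1* (3.89), *FATE1*, *CCK* (3.63), *BCL11B* (1.63), *PAPPA* (1.47), *DKK2* (1.43), *GSTM4* (1.25), *PTPN13* (0.80), *CAV1* (0.72) and *SOX6* (0.71), as log2 fold changes over iEF. *FATE1* had 0.457 CPM in DAF and no read in iEF. *AURKA* and *FOXM1*, genes of mitosis, were lower in DAF, at -0.66 and -0.62. Δ22 gave 2 higher, *BCL11B* and *PAPPA*, where 0.472% of all genes were higher and 0.83% lower. Of 8 genes reported as repressed, all 8 were lower in iLuc and in WT-EF than in iEF, against 22.1% and 17.0% of all genes. In DAF *IGFBP3* and *SPRY1* were lower, *IGFBP3* with a mean of 2878 CPM against 5774 in iEF and *SPRY1* at -1.13, and *CDKN1A*, which encodes a cell cycle inhibitor, was higher by 0.72. In Δ22 *SPRY1* was also lower, at -1.21 (SE 0.23, adjusted p = 0.0197), and *CDKN1A* higher, at 0.82 (SE 0.15, adjusted p = 0.0148), whereas *IGFBP3* was at -0.37 (SE 0.24, adjusted p = 0.571).

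The genes whose levels followed each target most closely over the 15 libraries were taken by Pearson's r of log2 CPM among 17653 genes averaging at least 10 counts, as a description. For *LIPI* they were *HOOK1* (r = 0.995) and *ITM2A*, for *VRK1* *YEATS4* (0.991) and *CHAF1A*, and for *NR0B1* *DNAJC12* (0.990) and *SLC18B1*. For *PPP1R1A* they were *KCNH3* (0.990) and *NLRP2*, for *STEAP1* *ZC3H13* (0.986) and *DAB1*, and for *EGR2* *UPF2* (0.961) and *TFEC*. *PRKCB* was among the closest genes of both *FCGRT* (0.985) and *STEAP2* (0.985), and its own closest were *LINC02732* (0.987) and *SLC24A3*. Among the 9 themselves the lowest r was 0.184, between *EGR2* and *VRK1*. The 15 libraries fall into 5 conditions and are not 15 independent samples for these values.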

How the data were processed

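RNA-seq counts of 15 A673 libraries were analysed, 3 per condition as labelled. The authors aligned paired-end 150-bp reads to hg19 with STAR (2.5.1b in the submitters' processing notes) and counted them per Ensembl gene with htseq-count in intersection-strict mode. The counts were deposited as raw whole numbers. A second table by the authors holds ComBat-adjusted counts for 27002 genes, which are decimal values and were used in an alternative, rounded to whole numbers. A deposited table of the authors' log2 fold changes and adjusted p-values was not used, nor were 3 columns that match no sample.

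Of 57820 identifiers, 55538 were matched to a symbol and 44588 had a count. Total counts of 28659475 to 41859880 left the 9 members with a mean of at least 475.5 counts. Genes with a mean count of 1 or more (28793) entered edgeR 4.0.16 (R 4.3.3), were scaled by TMM and shared a single quasi-likelihood fit over the 15 libraries. Replicate number was a block in it, because the study adjusts each replicate set. P-values were adjusted by Benjamini-Hochberg within each of 7 comparisons, with a cutoff of 0.05. Deviations from group means correlated within a number with a median r of 0.147 (30 pairs) and between numbers with -0.0797 (60 pairs). Same-condition libraries differed beyond sampling noise (chi-square per gene 12.7 to 81.2 over 15 pairs). In simulated DAF against iEF data, 186 of 200 changed genes and 13 unchanged ones were called among 28793. The changed genes were drawn from genes well above the count filter, and the simulated libraries held no replicate effect. Recovery at low counts or with such an effect was therefore not tested.

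Named genes are the 9 members, their relatives or partners, the nearest tested neighbours, listed activated and repressed targets that were called as stated, the 2 most alike genes per member, and *FLI1*. Some of these genes are not reported here. The members and lists were chosen with earlier results of these data known, and the GGAA run search was added after the data were seen. Alternatives covered DESeq2 1.42.0 size factors and Wald test, other count filters, the ComBat-adjusted values, no replicate block, only the 6 libraries compared, and leaving out each replicate or library.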

Additional observations from a re-analysis of the deposited data

How the results depend on the processing

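Of 63 comparisons of a member, 44 kept their call under all 25 alternatives and 19 did not, and no called change reversed its direction. All 9 members stayed higher in iLuc and in WT-EF than in iEF in every alternative. The 0 members called higher in Δ22 than in iEF became 6 with no filter on low counts, 1 with DESeq2 size factors, 2 with DESeq2's Wald test and 2 on the ComBat-adjusted values, and 0 to 2 on leaving out libraries. In the first 4 of these settings 1.76%, 0.521%, 2.87% and 2.87% of all genes were called higher, against 0.472% in the main fit. The 2 members lower in WT-EF than in iLuc became 6 with no filter, 5 on the ComBat-adjusted values and 4 with only the 6 libraries compared, and 1 to 5 on leaving out libraries. Of all genes, 9.03% were lower in the main fit, 5.86% with no filter and 1568 of 27608 with only the 6 libraries. The 4 members higher in DAF than in Δ22 became 7 with no filter and 7 with only the 6 libraries. Of all genes, 0.948% were higher in the main fit, 663 of 44588 with no filter and 4.52% with only the 6 libraries. The cause of these changes in call was not tested. Without the replicate block, 6 members remained called for DAF against iEF, 5 for DAF against WT-EF and 3 for DAF against Δ22, the lost calls being *LIPI* (1.32 (adjusted p = 0.177)), *PRKCB* (-0.70 (adjusted p = 0.110)) and *STEAP1* (0.61 (adjusted p = 0.0689)), and the block changed no other call of a member. *NR0B1* gained a call in 11 alternatives for DAF against Δ22 and in 6 for DAF against WT-EF. Over all genes, Δ22 against iEF gave 136 higher and 239 lower, which became 784 and 730 with no filter, 458 and 613 with DESeq2, 490 and 609 on the ComBat-adjusted values and 50 and 125 with no replicate block, and 0 to 409 and 0 to 570 on leaving out libraries, with 0 without replicate 2. DAF against Δ22 gave 273 higher and 109 lower, which became 663 and 551 with no filter, 470 and 316 with DESeq2, 448 and 307 on the ComBat-adjusted values, 147 and 30 with no replicate block, 1254 and 1387 with only the 6 libraries, and 84 to 415 and 9 to 342 on leaving out libraries. WT-EF against iLuc gave 2601 lower, which became 1568 with only the 6 libraries. On leaving out libraries its counts were 1132 to 3786 higher and 700 to 3059 lower, and DAF against iEF gave 497 to 1878 higher and 579 to 2314 lower. The lowest counts of genes called were 3693 higher in iLuc than in iEF, 2187 higher in WT-EF than in iEF and 2146 lower in DAF than in WT-EF. *PPP1R1A* in iEF, Δ22 and DAF is limited by its low counts.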
